A study of Mus musculus with 12 samples.

Results

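The 8 transcription factors Emx2, Pax2, Pax8, Lhx1, Meis1, Meis2, Msx1 and Msx2 pattern the Muellerian duct, the embryonic tube that becomes the oviduct and the uterus. They were taken by name as non-Hox patterning factors, with the probe set of highest mean for each gene, and all 8 were found among the 19938 genes measured, each with 1 probe set. RNA came from flushed oviducts and uterine horns of mice in preimplantation pregnancy and was hybridised to 12 Affymetrix mouse gene arrays. E2 mice received estradiol (E2) under the skin at 10 µg/kg in sesame oil on each day from day 0.5 to day 2.5, oil mice received the oil alone (0 µg/kg), and all tissue was taken on day 3.5. The groups were E2 uterus, oil uterus, E2 oviduct and oil oviduct, with 3 biological replicates each. The labels used here give neither strain nor age, and do not say whether equal replicate numbers stand for 1 mouse. Other doses of E2 were not analysed here.

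In the embryo, Lhx1, Pax2 and Emx2 are needed for the duct to form and grow, and loss of any of them leaves mice without a normal female tract. Pax8, a paired-box relative of Pax2, marks the non-ciliated secretory cells of the adult oviduct and the glands and lining of the uterus. Meis1 and Meis2 belong to the TALE homeodomain family and bind DNA together with Hox and Pbx proteins. Msx1 and Msx2 are homeodomain repressors, and in the mouse uterus they keep the lining receptive until the embryo attaches.

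Array medians lay between 89.5 and 92.9 intensity units, and each array followed its group mean with r 0.986 to 0.997 over all genes, which are not independent replicates. The labelled tissues were checked against markers, and all 8 ciliated cell markers were higher in oil oviduct than in oil uterus, while the uterine patterning genes Hoxa10 and Hoxa11 were lower there by 2.57 and 3.92 log2 units. Oil replicate 3 stood apart, with 302 genes in oviduct and 177 in uterus displaced by over 1 log2 unit against the group's other 2 arrays, against 8 to 62 genes on the other 10 arrays. None of the 8 factors was among the genes displaced that far on any array. The oil oviduct array of replicate 3 also carried corpus luteum and ovary markers, with a summed log2 level of 12.27 over 7 measured markers, against 8.60 and 9.05 on the other oil oviduct arrays. Values without oil replicate 3 in both tissues are given beside some results, not beside all that they moved. Intensities compare groups for 1 gene at a time, because different probe sets differ in their response.

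The promoters of Pax8, Msx2, Meis1 and Emx2 are shown because these 4 genes rose in E2 uterus, and that of Msx1 because it did not rise while its paralog Msx2 did. Each sequence runs 5′ to 3′ on the gene's strand from 250 bases before to 50 bases after a gene start in RefSeq on build GRCm38.p6, where all 8 factors matched and Pax2 had 3 listed starts. Capitals mark matches on either strand to an estrogen receptor half-site (GGTCA), a GC box (GGGCGG) or a CCAAT box (CCAAT). The Pax8 window is chr2:24475550-24475849 on the minus strand, the Meis1 window chr11:19018920-19019219 on the minus strand, and the Emx2 window chr19:59458440-59458739 on the plus strand. The Msx2 window is chr13:53472731-53473030 and the Msx1 window chr5:37824536-37824835, both on the minus strand. The windows of Meis1 and Meis2 lie inside the listed spans of their genes, which end at 19019651 and 116067537. The outer ends of those spans were not searched.
Pax8: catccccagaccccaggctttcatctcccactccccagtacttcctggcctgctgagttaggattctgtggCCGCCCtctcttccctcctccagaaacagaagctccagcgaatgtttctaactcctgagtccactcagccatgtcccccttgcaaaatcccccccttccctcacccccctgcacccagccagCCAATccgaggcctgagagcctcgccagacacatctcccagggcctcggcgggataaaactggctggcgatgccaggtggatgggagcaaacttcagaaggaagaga
Meis1: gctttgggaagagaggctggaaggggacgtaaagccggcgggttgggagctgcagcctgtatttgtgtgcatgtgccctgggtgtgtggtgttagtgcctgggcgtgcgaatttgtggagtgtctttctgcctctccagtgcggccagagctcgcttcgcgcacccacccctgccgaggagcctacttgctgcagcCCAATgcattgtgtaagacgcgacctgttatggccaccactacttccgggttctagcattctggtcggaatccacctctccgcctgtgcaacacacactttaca
Emx2: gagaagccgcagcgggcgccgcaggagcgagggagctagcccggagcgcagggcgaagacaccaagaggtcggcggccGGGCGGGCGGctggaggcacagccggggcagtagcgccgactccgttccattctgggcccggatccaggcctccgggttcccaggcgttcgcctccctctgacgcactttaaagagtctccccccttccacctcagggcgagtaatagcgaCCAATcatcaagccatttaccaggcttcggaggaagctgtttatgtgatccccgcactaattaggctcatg
Msx2: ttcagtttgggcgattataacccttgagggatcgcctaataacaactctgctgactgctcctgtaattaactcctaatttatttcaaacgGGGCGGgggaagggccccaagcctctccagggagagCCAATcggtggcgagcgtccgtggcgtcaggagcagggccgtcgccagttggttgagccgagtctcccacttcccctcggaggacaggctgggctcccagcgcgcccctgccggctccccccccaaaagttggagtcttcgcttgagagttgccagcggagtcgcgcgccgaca
Msx1: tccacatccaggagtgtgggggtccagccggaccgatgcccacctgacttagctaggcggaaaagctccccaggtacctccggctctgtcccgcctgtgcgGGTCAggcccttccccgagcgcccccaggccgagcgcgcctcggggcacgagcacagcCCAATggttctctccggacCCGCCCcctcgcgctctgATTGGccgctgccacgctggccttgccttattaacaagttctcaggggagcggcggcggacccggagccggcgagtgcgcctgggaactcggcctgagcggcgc

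No full estrogen response element (GGTCANNNTGACC) was found in any of the 10 windows of the 8 factors, and 0.07% of all 32851 promoter windows held one. The half-site occurred in the windows of Msx1 and Lhx1, and in 40.5% of all windows, so 0 of the 4 genes that rose carried it here. The AP-1 site (TGANTCA), which 7.81% of windows held, was absent from all 10. A CCAAT box lay in the window of each gene except Pax2, against 37.4% of all windows. GC boxes lay in the windows of Emx2 (2 overlapping matches), Pax8, Msx1 and Msx2 and in 2 of the 3 Pax2 windows, against 35.7% of all windows. The share of G and C in the 10 windows ran from 51% (Meis2) to 71.7% (a Pax2 window), against a median of 52.7% for all windows. The part of base composition in these matches was not tested. These matches describe the letters of short windows, and a window without a match says nothing about binding elsewhere in the gene.

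In the uterus, E2 raised 4 of the 8 factors and lowered 0 by limma. Pax8, Msx2, Meis1 and Emx2 rose, while Pax2, Meis2, Msx1 and Lhx1 did not pass the test. The test was limma on log2 intensities with all 12 arrays in 1 fit, and Benjamini-Hochberg adjusted p-values over all genes were called at 0.05. In this comparison 12.4% of all genes were called higher and 14.3% lower, 26.7% in all, and 7 of the 8 factors and 36.1% of all genes had an unadjusted p under 0.05. On 6 of the 8 factors all E2 arrays lay above all oil arrays, against 19% of all genes (40.5% did not overlap in either direction, 21.5% with E2 lower). The median log2 fold change of the 8 factors was 0.34, against 0.00 for all genes. In bulk tissue, more cells of a type and more RNA per cell cannot be told apart.

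**Figure D1:**
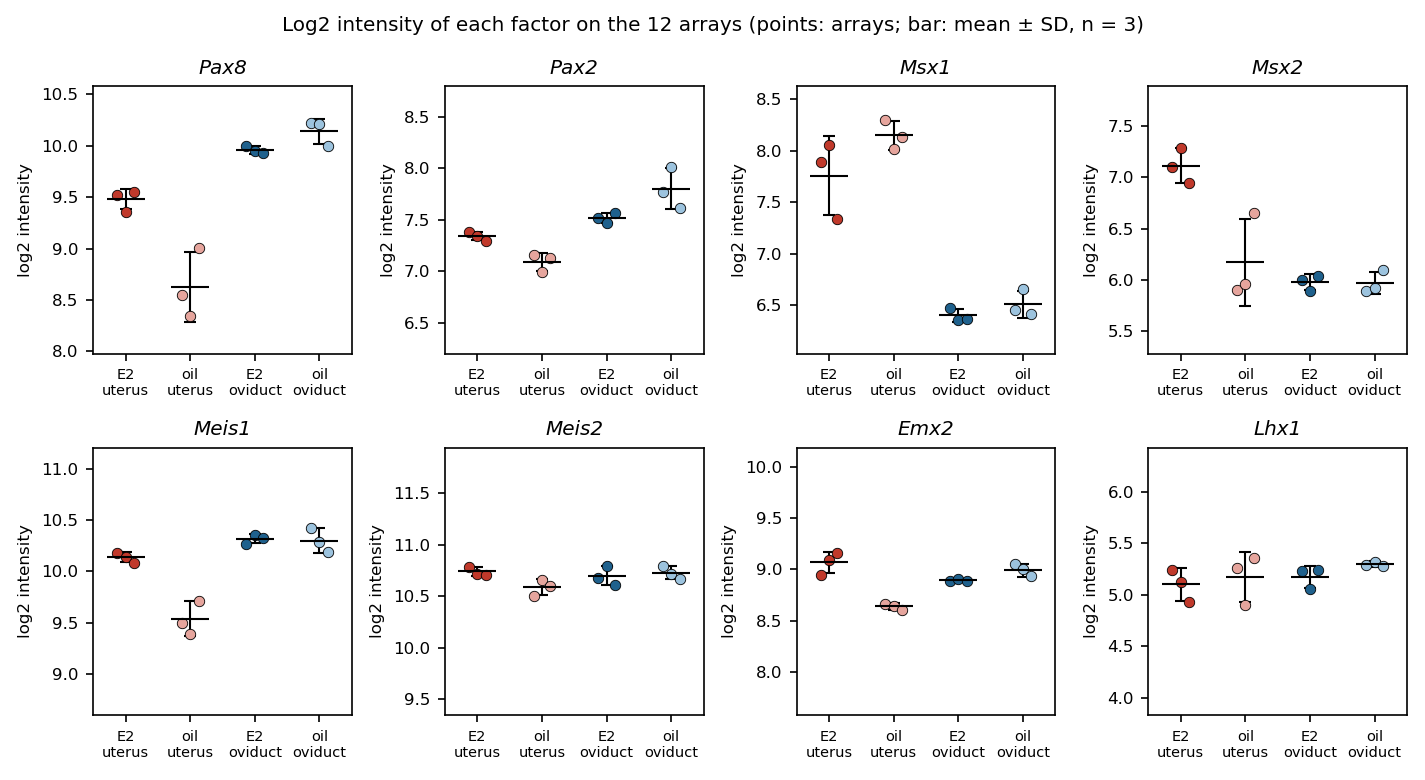
Log2 intensity (vertical axis, every panel spanning the same range of log2 units) of each factor on the 12 arrays, with the arrays of E2 and oil uterus and of E2 and oil oviduct as points and the mean ± SD of 3 arrays as bars. Pax8, Meis1, Emx2 and Msx2 lie higher in E2 uterus than in oil uterus with no overlap, and Msx1 is lower in both oviduct groups than in both uterine groups.

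Pax8 had log2 intensities of 9.52, 9.36 and 9.55 in E2 uterus, against 8.55, 8.34 and 9.01 in oil uterus. All E2 arrays lay above all oil arrays, and oil replicate 3 was the oil array nearest to them. Pax8 rose by 0.84 log2 units (SE 0.14, 95% CI 0.54 to 1.15, adjusted p = 0.00081 by limma), which is 1.8-fold. Without oil replicate 3 the rise was 1.03 (adjusted p = 1.6e-05). Its paralog Pax2, which acts beside Pax8 in the developing kidney and genital ducts, had values of 7.38, 7.34 and 7.29 in E2 uterus and 7.16, 6.99 and 7.13 in oil uterus. These did not overlap either, but the difference of 0.25 (SE 0.09, CI 0.04 to 0.45, limma adjusted p = 0.078) missed the threshold. It passed in 4 of 24 alternatives, among them without oil oviduct replicate 2 or 3 (limma adjusted p down to 0.029), arrays that enter only through the shared spread.

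Emx2, the homeobox factor of the growing duct epithelium that persists in the adult endometrium, gave 8.95, 9.09 and 9.16 in E2 uterus and 8.66, 8.64 and 8.61 in oil uterus. The oil arrays were tightly grouped and all below the E2 arrays. Emx2 rose by 0.43 (SE 0.07, CI 0.28 to 0.57, adjusted p = 0.00052 by limma), 1.34-fold. Lhx1, a LIM homeobox factor required in the forming duct, was dim on every array, with 5.24, 5.12 and 4.93 in E2 uterus and 5.26, 4.90 and 5.36 in oil uterus. The groups overlapped fully, and the difference was -0.08 (SE 0.12, CI -0.33 to 0.18, limma adjusted p = 0.71). Y-linked genes, which female tissue lacks, reached at most 2.29 to 7.50 by probe set over 8 probe sets, and all values of Lhx1 lie within that range, so a level of Lhx1 above background was not shown here.

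Of the TALE factors, Meis1 passed the test in the uterus and Meis2 did not. Meis1 gave 10.18, 10.14 and 10.08 in E2 uterus and 9.50, 9.39 and 9.71 in oil uterus, again without overlap. It rose by 0.60 (SE 0.09, CI 0.41 to 0.79, adjusted p = 4e-04 by limma), 1.52-fold, and by 0.69 without oil replicate 3. Meis2, its close relative with overlapping partners, gave 10.78, 10.72 and 10.71 in E2 uterus and 10.50, 10.66 and 10.60 in oil uterus. The E2 arrays lay just above the oil arrays, by 0.15 on average (SE 0.07, CI 0.00 to 0.31, limma adjusted p = 0.14).

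Of the Msx paralogs, Msx2 passed the test and Msx1 did not. Msx2 gave 7.10, 7.28 and 6.94 in E2 uterus and 5.90, 5.96 and 6.65 in oil uterus, with oil replicate 3 lying 0.72 log2 units above the other oil arrays. It rose by 0.94 (SE 0.17, CI 0.57 to 1.31, adjusted p = 0.0015 by limma), 1.92-fold, and by 1.18 without oil replicate 3 (adjusted p = 1.8e-05). Both uterine means of Msx2 lie under 7.50, the brightest of the Y-linked probe sets, so the share of background in its fold change was not tested. That probe set is of Sry, and the next brightest reached 5.36. The uterine means of Pax2 (7.34 with E2, 7.09 with oil) also lie under 7.50. The same limit thus holds for its uterine, interaction and tissue differences. Msx1, the Msx gene best known from the receptive uterine lining, gave 7.89, 8.06 and 7.34 in E2 uterus and 8.30, 8.02 and 8.13 in oil uterus. The groups overlapped, E2 replicate 3 was the lowest of the 6 arrays, and the difference of -0.39 (SE 0.15, CI -0.72 to -0.05, limma adjusted p = 0.09) was not called. Without E2 uterus replicate 3 the difference was -0.17, and without E2 uterus replicate 2 it was -0.53 and passed (adjusted p = 0.027). The difference for Msx1 thus depended on single E2 arrays.

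**Figure D2:**
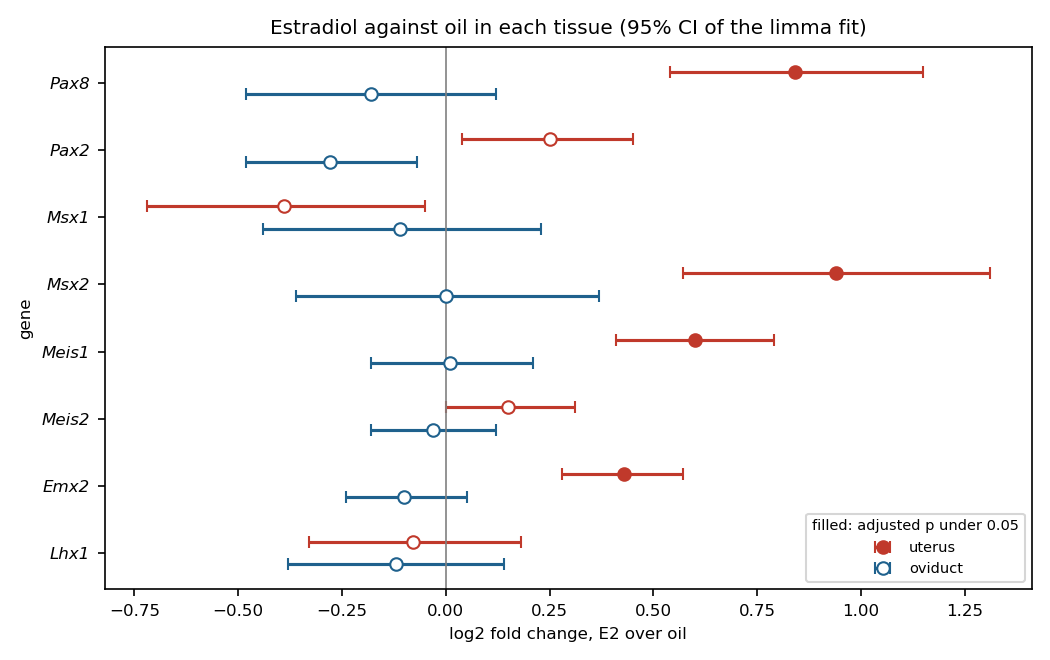
Log2 fold change of E2 over oil (horizontal axis) for each factor (vertical axis) in uterus (red, upper of each pair) and oviduct (blue), with 95% confidence intervals of the limma fit and filled points where the adjusted p was under 0.05. Filled points are the uterine values of Pax8 (0.84), Msx2 (0.94), Meis1 (0.60) and Emx2 (0.43), and 0 oviductal points are filled.

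In the oviduct, limma called 0 of the 8 factors, where it called 0.291% of all genes, 0.16% higher and 0.13% lower. At an unadjusted p under 0.05 there was 1 factor, Pax2, against 10.5% of all genes. Pax2 gave 7.52, 7.47 and 7.57 in E2 oviduct and 7.77, 8.01 and 7.61 in oil oviduct, all E2 arrays lying below all oil arrays, with a difference of -0.28 (SE 0.09, CI -0.48 to -0.07, limma adjusted p = 0.31). Emx2 and Lhx1 also did not overlap between the groups, by small differences of -0.10 (CI -0.24 to 0.05) and -0.12 (CI -0.38 to 0.14), so that 3 of 8 factors lay lower on every E2 array, against 9.07% of all genes (8.31% lay higher, and 17.4% did not overlap in either direction).

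The 4 factors raised in E2 uterus were not called in the oviduct. Pax8 gave 10.00, 9.95 and 9.93 in E2 oviduct and 10.22, 10.21 and 10.00 in oil oviduct, a difference of -0.18 (CI -0.48 to 0.12, limma adjusted p = 0.71). Meis1 gave 10.27, 10.35 and 10.33 in E2 oviduct and 10.42, 10.29 and 10.19 in oil oviduct, a difference of 0.01 (CI -0.18 to 0.21). Msx2 gave 6.0, 5.89 and 6.04 in E2 oviduct and 5.89, 5.92 and 6.10 in oil oviduct, a difference of 0.00 (CI -0.36 to 0.37). Thus an oviductal rise as large as the uterine estimate lay outside the interval for each of Pax8, Meis1, Msx2 and Emx2. Meis2 and Msx1 differed by -0.03 (CI -0.18 to 0.12) and -0.11 (CI -0.44 to 0.23).

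The difference between the E2 effects in oviduct and in uterus was tested directly as an interaction contrast. Limma called 5 of the 8 factors, all with a lower effect in oviduct, where 5.71% of all genes were called in that direction, 5.77% in the other and 11.5% in either. Pax8 differed by -1.02 (SE 0.20, adjusted p = 0.0059), with effects of -0.18 in oviduct and 0.84 in uterus. Meis1 differed by -0.59 (SE 0.13, adjusted p = 0.011) and Emx2 by -0.52 (SE 0.09, adjusted p = 0.0037). These 3 calls held in all 23 alternatives, including those with any 1 of the 12 arrays left out. Over the 23 the difference ranged from -1.28 to -0.88 for Pax8, -0.73 to -0.51 for Meis1 and -0.58 to -0.48 for Emx2.

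Msx2 differed by -0.93 (SE 0.24, limma adjusted p = 0.026), and Pax2, whose effect passed in neither tissue alone in the reported fit, by -0.52 (SE 0.13, adjusted p = 0.026). The effect of Pax2 was -0.28 in oviduct and 0.25 in uterus. Both of these calls were lost, with adjusted p-values of 0.053 to 0.067, when E2 uterus replicate 1 or 2, oil uterus replicate 2, or E2 oviduct replicate 1 or 2 was left out, which left 3 factors called. That of Msx2 was also lost without oil uterus replicate 1 (-0.80) or E2 oviduct replicate 3 (-0.97). Over the 12 such fits, the difference ranged from -1.17 to -0.80 for Msx2 and from -0.62 to -0.42 for Pax2. Interactions of Meis2 (-0.18, SE 0.10), Msx1 (0.28, SE 0.22) and Lhx1 (-0.04, SE 0.17) were not called.

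Between the tissues of oil mice, 4 factors were higher in oviduct (Pax8, Meis1, Pax2 and Emx2) and 1 was lower (Msx1), of 8. Limma called 17.3% of all genes higher and 21.5% lower in this comparison, 38.7% in all. Pax8, the secretory cell factor, was 1.51 log2 units higher in oil oviduct than in oil uterus (SE 0.14, CI 1.20 to 1.81, adjusted p = 4.9e-06), 2.84-fold. Over 24 alternatives this difference of Pax8 ranged from 1.36 to 1.76, and it was called in each. Meis1 was higher by 0.77 (SE 0.09), Pax2 by 0.71 (SE 0.09) and Emx2 by 0.35 (SE 0.07). Msx1 gave 6.45, 6.66 and 6.41 in oil oviduct and 8.30, 8.02 and 8.13 in oil uterus, lower by more than a unit on every array. Its fold change was -1.64 (SE 0.15, CI -1.98 to -1.31, adjusted p = 5.8e-06 by limma), 3.12-fold lower. The oviductal values of Msx1 lie under the brightest Y-linked value (7.50), so the share of background in this fold was not tested. Msx2 (-0.19, SE 0.17), Meis2 (0.14, SE 0.07) and Lhx1 (0.12, SE 0.12) were not called.

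Between the tissues of E2 mice the same contrast called 3 factors, where 15.2% of all genes were higher and 18.9% lower, 34.1% in all. This comparison uses the E2 arrays and the one before it the oil arrays of the E2 tests above, so the comparisons share samples. Pax8 was higher in E2 oviduct than in E2 uterus by 0.48 (SE 0.14, adjusted p = 0.018 by limma), and its call was lost without E2 uterus replicate 2 (0.42) or E2 oviduct replicate 1 (0.46). Msx1 was lower by 1.36 log2 units in E2 oviduct, with a fold change of -1.36 (SE 0.15, adjusted p = 3.6e-05). Msx2 was lower with a fold change of -1.13 (SE 0.17, adjusted p = 0.00028). Both Msx2 means and the oviductal mean of Msx1 lie under 7.50, so the share of background in these folds was not tested either. Meis1 (0.18, CI -0.01 to 0.38), Pax2 (0.18, CI -0.02 to 0.39) and Emx2 (-0.17, CI -0.31 to -0.02) were not called. Emx2 passed in 5 of 24 alternatives (adjusted p 0.0032 to 0.21 over all of them), among them without E2 uterus replicate 1 (-0.22), and Meis1 in 2 of 24. The change of these tissue differences between E2 and oil mice is the interaction contrast given above and is no further evidence.

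**Figure D3:**
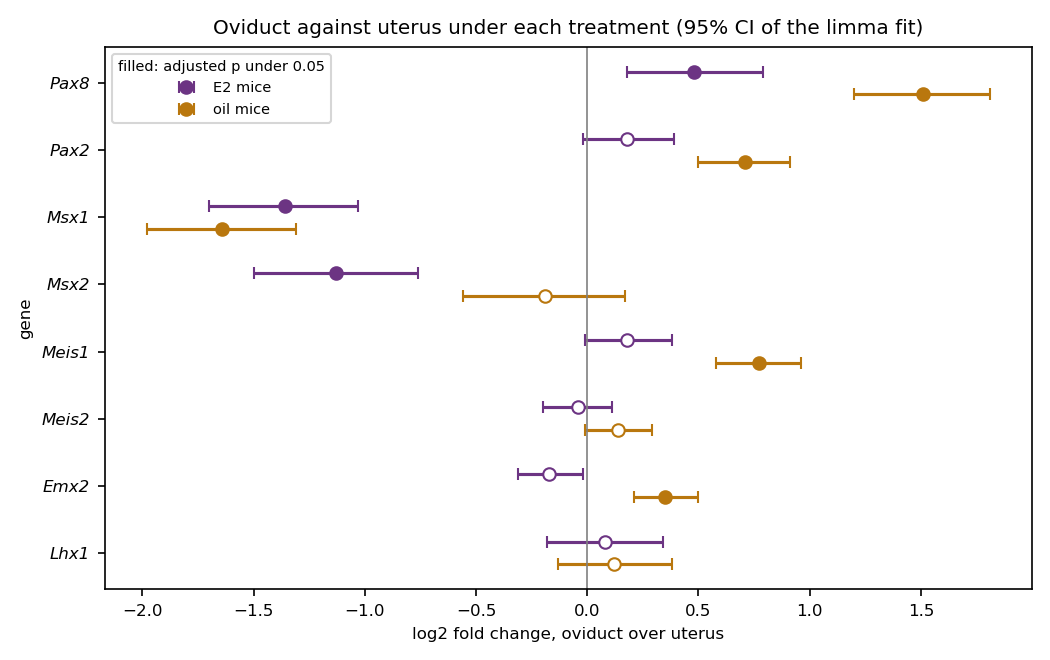
Log2 fold change of oviduct over uterus (horizontal axis) for each factor (vertical axis) in E2 mice (purple, upper of each pair) and oil mice (ochre), with 95% confidence intervals of the limma fit and filled points where the adjusted p was under 0.05. Pax8 lies at 0.48 in E2 mice and 1.51 in oil mice, Msx2 at -1.13 and -0.19, and Msx1 below 0 under both treatments.

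By level, the groups of Pax8 ran from oil uterus (8.63 ± 0.34, SD, n = 3) through E2 uterus (9.48 ± 0.10) and E2 oviduct (9.96 ± 0.04) to oil oviduct (10.14 ± 0.12). Of these neighbours, E2 and oil oviduct were not called apart. Msx1 ran from E2 oviduct (6.40 ± 0.06) and oil oviduct (6.51 ± 0.13) to E2 uterus (7.76 ± 0.38) and oil uterus (8.15 ± 0.14). Its tissues were called apart under each treatment, and its treatments were not called apart in either tissue. For Msx2, oil oviduct (5.97 ± 0.11) was not called apart from E2 oviduct (5.98 ± 0.08) or from oil uterus (6.17 ± 0.42). E2 uterus (7.11 ± 0.17) was called above oil uterus and E2 oviduct. Groups that differ in both tissue and treatment were not tested against each other. For Emx2, E2 uterus was highest (9.07 ± 0.10), followed by oil oviduct (8.99 ± 0.06) and E2 oviduct (8.90 ± 0.01), with oil uterus lowest (8.64 ± 0.03). For Meis1, oil uterus (9.54 ± 0.17) lay below E2 uterus (10.14 ± 0.05), oil oviduct (10.30 ± 0.12) and E2 oviduct (10.32 ± 0.04). Group means of Pax2 ran from 7.09 in oil uterus to 7.80 in oil oviduct, while those of Meis2 (10.59 to 10.74) and Lhx1 (5.10 to 5.30) hardly spread.

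The balance of paralogs was compared on each array by the difference of their log2 intensities, of which only the change between groups can be read. It reuses the values given above and is no further evidence. Msx2 minus Msx1 was -0.79, -0.78 and -0.40 in E2 uterus, against -2.40, -2.06 and -1.48 in oil uterus, a shift of 1.32 towards Msx2. This shift includes the Msx1 difference of -0.39, which was not called and depended on single E2 arrays. The background limit on Msx2 holds here too. Meis1 minus Meis2 was -0.60, -0.58 and -0.63 in E2 uterus and -0.99, -1.27 and -0.88 in oil uterus, a shift of 0.45 towards Meis1. Pax8 minus Pax2 was 2.14, 2.02 and 2.26 in E2 uterus and 1.39, 1.35 and 1.88 in oil uterus, a shift of 0.60 towards Pax8. In each of the 3 pairs the uterine groups did not overlap, with a two-sided exact permutation p of 0.10, which is the smallest that 3 against 3 arrays allow (0.20 after Benjamini-Hochberg adjustment over 6 tests). In the oviduct the shifts were 0.11, 0.04 and 0.10 for the 3 pairs, with overlapping groups and exact p-values of 0.30 to 0.60.

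**Figure D4:**
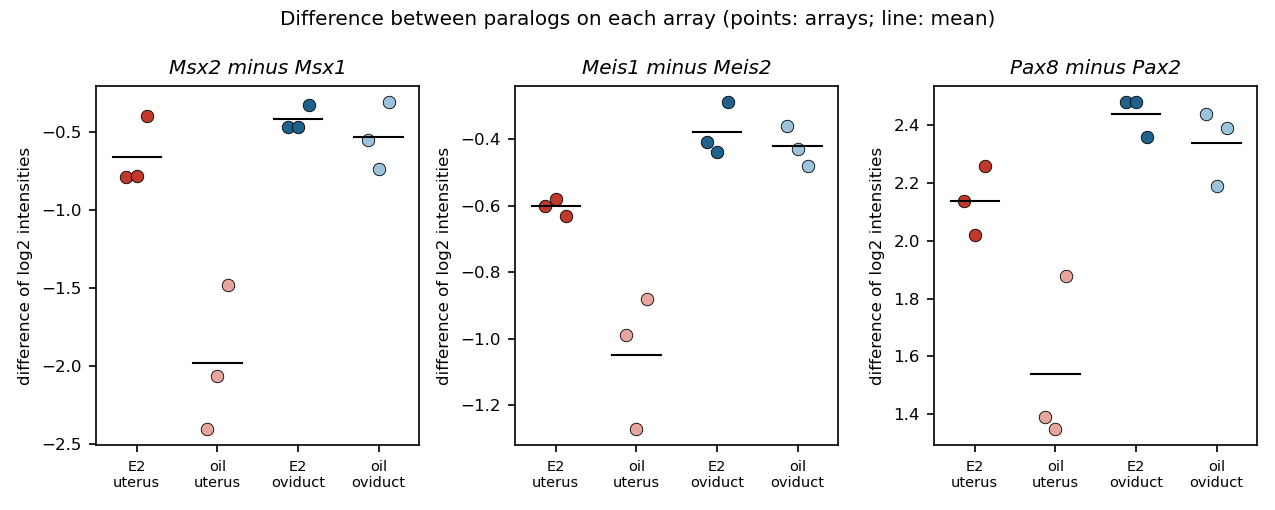
Difference of log2 intensities (vertical axis, own scale in each panel) between the members of 3 paralog pairs on each array of the 4 groups, with points as arrays and lines as means. The E2 and oil uterus points are apart in all 3 panels, by 1.32, 0.45 and 0.60, while the E2 and oil oviduct points overlap.

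Partners and pathway genes of the factors were followed in 4 lists. Among TALE and Hox partners, 1 of 12 measured genes rose and 5 fell in E2 uterus (list median -0.13, against 0.00 for all genes). Of all genes, 12.4% were called higher there and 14.3% lower. Pknox2, a TALE relative that competes for Pbx partners, fell by 1.03 log2 units (SE 0.10). Hoxa11 fell by 0.92 (SE 0.10) and Hoxa10 by 0.57 (SE 0.11), both Hox genes of uterine identity and decidual growth. Tgif1, a TALE repressor, rose by 0.55 (SE 0.06). The Pbx genes measured, Pbx2, Pbx3 and Pbx4, were not called.

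Among homeobox and paired-box relatives, 2 of 15 rose and 1 fell in E2 uterus, with a list median of 0.05. Dlx5 and Dlx6, distal-less genes that act with Msx genes in limb and face development, rose by 1.05 (SE 0.19) and 0.94 (SE 0.13), and Lhx6 fell by 0.47 (SE 0.08). Among Muellerian duct formation genes, 3 of 26 rose and 5 fell (list median -0.11). Among all genes 12.4% were higher and 14.3% lower, so the counts of relatives and duct formation genes are not read as results about these lists. The Wnt ligand Wnt7a, which patterns the duct from its epithelium, rose by 0.98 (SE 0.19) and Wnt4 by 0.57 (SE 0.09), whereas the odd-skipped factors Osr1 and Osr2 fell by 1.37 (SE 0.21) and 0.80 (SE 0.19). Of the 4 lists, the oviduct had 0 genes called by limma. An unadjusted p under 0.05 was found for 0 of 12 partners and 0 of 15 relatives. It was found for 4 of 26 duct formation and 6 of 30 Msx axis genes, against 10.5% of all genes. Without oil replicate 3, Wnt7a, a gene of both of the last 2 lists, was called lower in E2 oviduct (-0.77, SE 0.14, limma adjusted p = 0.044). With all 12 arrays, the largest oviductal differences in the 4 lists were those of Wnt7a (-0.73, SE 0.19, adjusted p = 0.18 by limma) and the prostaglandin synthase Ptgs2 (0.49, SE 0.21).

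The uterine Msx axis, a list of LIF, BMP, Wnt, FGF and hedgehog genes acting with Msx at receptivity, went both ways in E2 uterus, with 7 of 30 genes higher and 8 lower (list median -0.03). Of all genes, 12.4% were called higher there and 14.3% lower. The LIF receptor Lifr rose by 1.71 (SE 0.10) and Ptgs2 by 1.08 (SE 0.21). Ptch1, the hedgehog receptor and target, fell by 1.62 (SE 0.08) and Bmp7 by 0.98 (SE 0.11). Lif, which lowers Msx1 in the mouse uterus, was at -0.67 (SE 0.24, limma adjusted p = 0.057), and Wnt5a, which rises when both Msx genes are lost, at -0.20 (SE 0.11), neither being called. Lif and Wnt5a were named after their values were seen. Of the 30 genes, the interaction contrast called 4 with a higher and 5 with a lower E2 effect in oviduct than in uterus, where 5.77% and 5.71% of all genes were called. Without oil replicate 3 the counts were 5 higher and 8 lower.

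**Figure D5:**
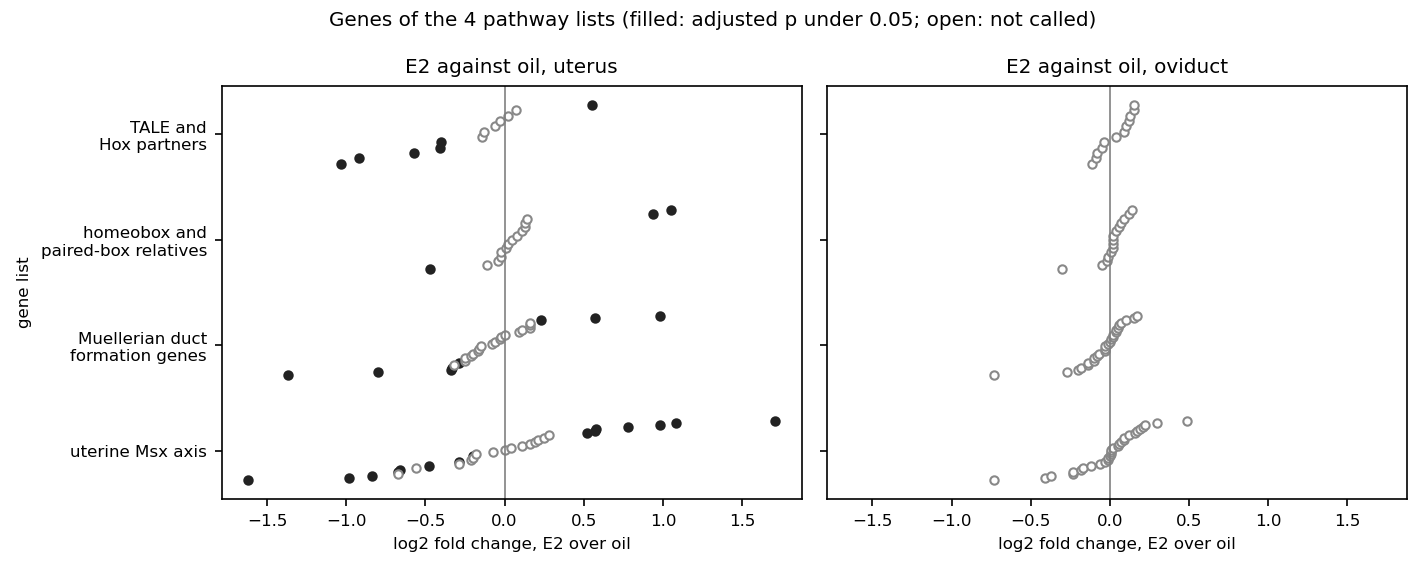
Log2 fold change of E2 over oil (horizontal axis) in uterus (left) and oviduct (right) for every measured gene of the 4 pathway lists (rows, genes sorted by value), with filled points where the limma adjusted p was under 0.05. The uterine panel holds filled points on both sides of 0 in each list, from -1.62 (Ptch1) to 1.71 (Lifr), and the oviductal panel holds 0 filled points.

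In oil mice, 14 of 30 genes of the Msx axis were higher in oviduct than in uterus and 8 lower (list median 0.32, against -0.04 for all genes). The growth factor Fgf1 was higher by 2.39 (SE 0.24) and the junction gene Cldn1 by 1.49 (SE 0.24), whereas Hand2, the progesterone-dependent stromal factor, and Egfr had fold changes of -1.50 (SE 0.08) and -1.38 (SE 0.08). Without oil replicate 3 the counts were 16 higher and 6 lower. Duct formation genes were lower in 10 of 26 and higher in 2, and without oil replicate 3 lower in 7 and higher in 4, where 21.5% of all genes were lower and 17.3% higher. Osr1 (-1.34, SE 0.21), Eya1 (-1.25, SE 0.10), Osr2 (-1.20, SE 0.19) and Tcf21 (-0.96, SE 0.12) had the largest differences. Of the homeobox relatives, Dlx6 (-1.47, SE 0.13) and Lhx6 (-0.53, SE 0.08) were lower and Msx3 (0.45, SE 0.10) higher. Of TALE and Hox partners, 6 of 12 were lower and 2 higher.

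Markers of cell types also moved, both in comparisons where factors were called and for E2 in the oviduct, where 0 factors were called. There Cldn4, 1 of 10 epithelial markers, was called lower (-0.46, limma adjusted p = 0.047). Wfdc2, 1 of 6 oviduct secretory markers, was also lower (-0.95, limma adjusted p = 0.0095). Of all genes, 0.13% were called lower there and 0.16% higher. Without oil replicate 3, Wfdc2 stayed called, Gpx3 was called higher (0.50) and Cldn4 was not called. For E2 uterus against oil uterus, 12.4% of all genes were called higher and 14.3% lower. In E2 uterus, 9 of 10 epithelial markers were called higher (median 0.96), and their summed log2 level was 13.13 to 13.28, against 11.96 to 12.19 in oil uterus. Of 6 oviduct secretory markers, 4 were higher (median 1.18), and of 8 immune markers, 4. Of 6 mesothelial markers, 3 were higher, with a summed log2 level of 10.49 to 10.98 in E2 uterus and 10.26 to 10.63 in oil uterus, and 2 were called without oil replicate 3. All 8 endothelial markers were lower (median -0.53), as were 4 of 7 uterine gland markers and 3 of 8 stromal markers. Smooth muscle markers were higher in 2 of 8, with a summed log2 level of 14.27 to 14.31 in E2 uterus, against 13.92, 13.81 and 14.27 in oil replicates 1, 2 and 3, and without oil replicate 3 the count was 6. Oil uterus replicate 3, the nearest to E2 uterus in Pax8, Meis1 and Msx2, had the highest muscle level of the oil uterus arrays and the lowest secretory level (10.73). None of the listed markers was at 0. The part of these cell type differences in the values of Pax8, Msx2, Meis1 and Emx2 was not tested.

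Between oil oviduct and oil uterus, 9 of 10 epithelial, all 6 oviduct secretory and 5 of 6 mesothelial markers were higher in oviduct, and 6 of 8 stromal and all 8 endothelial markers lower. There 17.3% of all genes were called higher in oviduct and 21.5% lower. The epithelial summed log2 level was 13.17 to 13.34 in oil oviduct and 11.96 to 12.19 in oil uterus. In E2 mice it was 13.09 to 13.18 in oviduct and 13.13 to 13.28 in uterus, which overlap. Single epithelial markers still differed between these E2 tissues, with 2 of 10 higher in oviduct and 3 lower. Oviduct secretory markers were higher in 2 of 6 and lower in 3. All 8 ciliated and 5 of 6 mesothelial markers were higher in E2 oviduct. Lower there were 6 of 8 endothelial and 5 of 8 each of stromal, smooth muscle and immune markers. Between these E2 tissues 15.2% of all genes were called higher in oviduct and 18.9% lower. The part of these cell type differences in the tissue differences of the 8 factors, in oil and in E2 mice, was not tested.

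Among factors whose group means spanned at least 1 log2 unit, the genes most like each in pattern were found by Pearson r over the 12 arrays, as a description over arrays that share tissue and treatment. For Pax8, with a span of 1.51, these were Eml5 (r 0.986), Retreg2 (0.984) and Pdlim5 (0.982). For Msx1, with a span of 1.75, they were the metalloprotease Adamts7 (0.982), the growth factor Gdf11 (0.977) and Cc2d1b (0.976). For Msx2, with a span of 1.13, they were Sparcl1 (0.963), Atp6v0d2 (0.960) and Rgma (0.956). Among the factors themselves, Pax8 and Meis1 ran closest, with r 0.96 over the 12 arrays and 0.82 after each group mean was removed. This pair was picked as the highest of all pairs of factors. Oil uterus replicate 3 lay above the group's other arrays by 0.56 for Pax8 and 0.27 for Meis1. The share of that array in the r of 0.82 was not tested. Pax8 and Msx1 ran in opposite order over the arrays (r -0.87), and r was -0.06 after group means were removed.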

How the data were processed

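Expression was measured in 12 samples, 3 in each of 4 groups, assigned from the sample titles. The authors deposited 1 intensity for each probe set and array, made with RMA per the submitters' processing notes, and neither its version nor detection calls are given in the sources used here. These intensities are on a linear scale (array maxima 9102 to 9950, none at or below 0) and were log2 transformed here. Of 35556 probe sets, 21789 had 1 gene symbol in the platform annotation, 1621 had several and 12146 had none listed. Each gene was represented by its single-symbol probe set of highest mean, which gave 19938 genes, with names updated through GRCm38.p6. The 4 group means were fitted with limma 3.58.1 in R 4.3.3 (lmFit, eBayes, two-sided, with no replicate block and no filter), and p-values were adjusted by Benjamini-Hochberg over all genes with a threshold of 0.05. The limma p-values set a difference of group means against the spread between biological replicates as labelled. That spread was shared over the 4 groups and moderated over genes, and the number of arrays limits its precision. Exact permutation tests used scipy 1.17.1. The fit was tested on simulated data with 200 genes changed in E2 uterus. It recovered 93% of changes of 1 log2 unit and 52% of changes of 0.5, and called 6 unchanged genes. These shares hold for that setting only. Of 155 genes in 14 lists, 151 were measured, and the others are not reported here. The factors, lists, tests and alternatives were chosen with earlier results of these data known, and the list counts without oil replicate 3 were added after seeing the data. The rule for named genes took the 8 factors, up to 4 called genes of each pathway list by absolute fold change, and 3 genes of like pattern for factors spanning at least 1 log2 unit.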

Additional observations from a re-analysis of the deposited data

Results flagged for a closer look

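For 5 factors the E2 effect in oviduct differed from that in uterus by the interaction test of limma over all 12 arrays (n = 3 a group). Pax8 differed by -1.02, with -0.18 in oviduct and 0.84 in uterus, and Msx2 by -0.93, with 0.00 and 0.94. Meis1 differed by -0.59 and Emx2 by -0.52, both with an oviductal effect near 0 or slightly below it (0.01 and -0.10). Pax2 also differed by -0.52, with -0.28 in oviduct and 0.25 in uterus, although neither tissue alone passed the test in the reported fit. The calls of Pax2 and Msx2 were lost when some single arrays were left out, and that of Pax2 also under quantile normalization between arrays with all arrays kept (-0.49, adjusted p = 0.050), which left 4 factors called.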

How the results depend on the processing

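Across 942 alternative values of the 8 factors in the 5 comparisons, 892 kept both direction and side of the threshold, 15 lost the call, 16 gained one and 19 changed sign, and 0 of those that changed sign were called in either fit. The rises of Pax8, Meis1, Emx2 and Msx2 in E2 uterus stayed called in every alternative run, with ranges of 0.70 to 1.03, 0.53 to 0.69, 0.38 to 0.48 and 0.80 to 1.24. A filter on dim genes left out Msx2 and Lhx1, so they have no value there, and a fit of only the groups compared does not exist for the interaction. Genes called in the oviduct numbered 58 in the reported fit, 19 with all probe sets tested, 10 when only oviduct arrays were fitted, 264 with array weights, 121 without oil replicate 3 in both tissues and 14 to 67 with 1 array left out. Factors called in the oviduct were 0 in each of these. Array weights also gave 8214 genes in the E2 uterus comparison, 4531 in the interaction and 10554 between the tissues of E2 mice, where 6 factors were called, against 5332, 2288, 6793 and 3. With 1 array left out, 3 to 5 factors were called in the interaction. Sign changes were small. Meis1 in oviduct was at -0.05 with array weights, -0.04 without oil replicate 3 in both tissues and -0.04 to 0.07 with 1 array left out. Lhx1 in uterus was at 0.01 without oil replicate 3 in both tissues. With 1 array left out, Lhx1 ranged from -0.22 to 0.01 for E2 in uterus, -0.14 to 0.09 in the interaction, -0.02 to 0.21 between oil tissues and -0.01 to 0.15 between E2 tissues. Msx2 ranged from -0.33 to 0.04 between oil tissues and from -0.04 to 0.07 for E2 in oviduct, and Meis2 from -0.08 to 0.01 there. The cause was not tested. Between uterus and oviduct of 1 treatment, same-numbered samples deviated together at r 0 to 0.26, and differently numbered ones at -0.28 to 0.26. These ranges overlap, so they cannot decide whether the numbers pair the samples. The reported fit used no replicate block. With the replicate block as a fixed factor, 5318 genes were called in uterus, 39 in oviduct and 2218 in the interaction, and as a random block 5341, 57 and 2677, with 4, 0 and 5 factors called under both.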

Other observations

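The gene whose pattern over the 12 arrays was most like that of Emx2 was Lifr (r 0.972), named after its value was seen, since Emx2 spanned only 0.43 log2 units. The group means of Lifr were 9.34 in E2 uterus, 7.64 in oil uterus, 8.76 in E2 oviduct and 8.95 in oil oviduct, the same order as for Emx2. For Meis2 it was Dcn, the stromal proteoglycan decorin (r 0.968), with group means of 12.47 in E2 uterus, 12.34 in oil uterus, 12.44 in E2 oviduct and 12.46 in oil oviduct. Both spans were small, and these likenesses are descriptions over arrays that share tissue and treatment.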
